A study of Mus musculus with 12 samples.

Results

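The unfolded protein response was followed here through 10 genes chosen by name as its classical readouts, out of 54345 genes in the table. They were Hspa5, Hsp90b1, Calr and Pdia4, which encode folding proteins of the endoplasmic reticulum (ER), Creld2 and Sdf2l1, which encode smaller stress-inducible ER proteins, Edem1 and Herpud1, which act in the disposal of misfolded proteins, Xbp1, which encodes a transcription factor of the response, and Dnajb9, which encodes an ER co-chaperone. All 10 were found in the table and all 10 passed the filter of the test, which asked for a value above 0 in at least 3 libraries. H9c2(2-1) cells, a myoblast line labelled WT that the study describes as rat cardiomyoblasts, were left untreated (Unt), or were given doxorubicin (DOX), doxorubicin with dexrazoxane (D_DXZ) or doxorubicin with magnesium hexacyanoferrate nanocatalysts (D_MgHCF) for 6 h. Each group had 3 libraries, and all treated groups received doxorubicin, so no library showed dexrazoxane or the nanocatalyst alone. Doxorubicin is an anthracycline chemodrug with cardiac toxicity, dexrazoxane is the cardioprotective drug given with it in the clinic, and MgHCF is the particle that the study tested as a cardioprotective agent. The doses in the sequenced cells are not given in the sources used here.

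The ER is where secreted and membrane proteins fold. When unfolded proteins accumulate there, the sensors IRE1 (gene Ern1), ATF6 and PERK (gene Eif2ak3) are activated. IRE1 splices the Xbp1 mRNA into a form that encodes an active transcription factor, ATF6 is cut by the proteases of sites 1 and 2 to release its active part, and PERK slows translation while favouring that of ATF4. ATF6 and XBP1 induce chaperones through the ER stress response element (ERSE), whereas ATF4 induces genes of amino acid supply and of stress-linked cell death. In muscle cells the ER also stores calcium, which calreticulin binds. Expression at the gene level, as used here, does not separate spliced from unspliced Xbp1 mRNA.

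Values were FPKM (fragments per kilobase of gene, scaled between libraries by the authors), with 16626514 to 19365119 reads on genes per library. The depth behind the members was ample, from at least 71 reads for Dnajb9 to at most 39692 reads for Calr in a library. Replicates of D_MgHCF correlated less with each other over genes (r from 0.942 to 0.984) than those of Unt (r from 0.994 to 0.995). The labels do not say whether the 3 libraries of a group came from separate cultures, so the tests measure the spread between libraries, which may be technical. The scaling contained in the deposited values was not proportional to the reads: relative to the read total it was 1.32 to 1.38 for Unt and 1.26 to 1.43 for D_MgHCF, but 0.647 to 0.784 for DOX and 0.747 to 0.892 for D_DXZ. Reads of mitochondrial genes made up 1.19% to 1.41% of the Unt libraries, 2.73% to 3.27% of the DOX and D_DXZ libraries and 1.76% to 3.16% of the D_MgHCF libraries, and their part in the results was not tested.

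The labelled cell type was checked against 11 muscle and cardiac markers. Vim, an intermediate filament gene of mesenchymal cells, ranged from 93.4 to 1137 FPKM and Gata4, a cardiac transcription factor gene, from 2.17 to 25.5 FPKM. The muscle regulators Myod1, Myf5 and Myog stayed at or below 0.126 FPKM in every library, so the defining myogenic factors were at or near 0. The cardiac genes Nkx2-5, Myh6 and Actc1 did not exceed 0.321, 0.136 and 0.153 FPKM, and Tnnt2, Des and Mef2c did not exceed 0.970, 1.57 and 1.02 FPKM. Of 8 markers of endothelial, immune, epithelial, hepatic and neural cells, 7 passed the filter of the test, which Alb did not. Of these 7, 1 was called higher in DOX than in Unt, where 18.6% of all genes were. In D_MgHCF against DOX 4 were called higher, where 31.4% of all genes were. The summed level of the 8 markers lay between 31.9 and 34.4 FPKM for D_MgHCF and between 13.0 and 17.3 FPKM for DOX. It lay between 9.63 and 16.02 FPKM for D_DXZ and between 9.66 and 10.6 FPKM for Unt. Without Tubb3, a tubulin gene used as the neural marker, the sums were 2.34 to 6.33, 2.80 to 3.77, 3.79 to 4.48 and 0.981 to 1.31 FPKM in the same order. Ptprc and Alb, which define immune cells and hepatocytes, did not exceed 0.0652 FPKM in any library. Cd68, the other immune marker, was at 0.885 to 1.11 FPKM in Unt and 2.75 to 3.51 in DOX. It was at 3.79 to 4.29 FPKM in D_DXZ and 1.98 to 4.77 in D_MgHCF. Pecam1, Cdh5, Epcam and Krt18 did not exceed 0.9325, 0.0969, 0.233 and 0.265 FPKM. Less RNA of a gene per cell and fewer cells of a kind cannot be told apart in such bulk libraries.

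Promoters were searched because several of the members are textbook targets of ATF6 and XBP1. For each gene, RefSeq (GRCm38.p6) gave 300 bases, from 250 before to 50 after the annotated start, and all 10 members had such a window. An ERSE was searched as CCAAT, 9 bases of any kind and CCACG, an ERSE-II as ATTGG, 1 base and CCACG, the core of the XBP1 element as TGACGTGG and the core of the ATF4 element as TGATGCAA, on both strands. An ERSE was found in Hspa5, Hsp90b1, Calr and Creld2, with 2 in Hsp90b1, while Herpud1 had an ERSE-II and an ATF4 core. The stretches with ERSE or ERSE-II are printed 5′ to 3′ on the strand of the gene, with the outer parts of each element in capitals, since they show how the same parts sit in either orientation. They lie at chr2:34771995-34772073 (plus strand, Hspa5), chr10:86705503-86705686 (minus strand, Hsp90b1), chr8:84847045-84847123 (minus strand, Calr), chr15:88819490-88819568 (plus strand, Creld2) and chr8:94386347-94386417 (plus strand, Herpud1).
Hspa5: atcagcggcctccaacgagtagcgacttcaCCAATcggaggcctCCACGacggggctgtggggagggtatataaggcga
Hsp90b1: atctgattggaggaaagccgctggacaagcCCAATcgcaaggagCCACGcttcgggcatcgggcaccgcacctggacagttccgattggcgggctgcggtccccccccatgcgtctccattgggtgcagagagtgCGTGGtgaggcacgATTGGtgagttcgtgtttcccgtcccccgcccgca
Calr: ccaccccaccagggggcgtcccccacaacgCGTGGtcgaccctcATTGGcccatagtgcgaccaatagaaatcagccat
Creld2: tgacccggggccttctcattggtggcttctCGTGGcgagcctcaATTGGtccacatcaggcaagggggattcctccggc
Herpud1: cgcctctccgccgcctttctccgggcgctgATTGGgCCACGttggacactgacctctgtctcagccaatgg

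The Hspa5 element ran from 65 to 47 bases before the start, and the nearer of the pair in Hsp90b1 from 107 to 89 bases before it. The element of Calr lay from 162 to 144 and that of Creld2 from 126 to 108 bases before the start, both in reverse orientation. The ERSE-II of Herpud1 lay from 52 to 42 bases before the start and its ATF4 core from 112 to 105 bases before it. Of all 32851 promoter windows, 0.119% held an ERSE, 0.0365% an ERSE-II, 0.676% an XBP1 core and 0.895% an ATF4 core. The ERSE was first defined on chaperone promoters of this kind, so its presence in 4 of 10 members is a description and no independent result. The windows of Pdia4, Sdf2l1, Edem1, Xbp1 and Dnajb9 held none of these letters, which draws no line between bound and unbound promoters. The Dnajb9 window (chr12:44210019-44210318, minus strand) lay wholly within the gene as counted here (44205559 to 44210326). Bases before that gene start were therefore not searched. The sequences are from mouse, while the study describes the cells as rat, and 7 of the 10 window starts lay within an annotated GENCODE M21 transcript of the same gene.

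**Figure D1:**
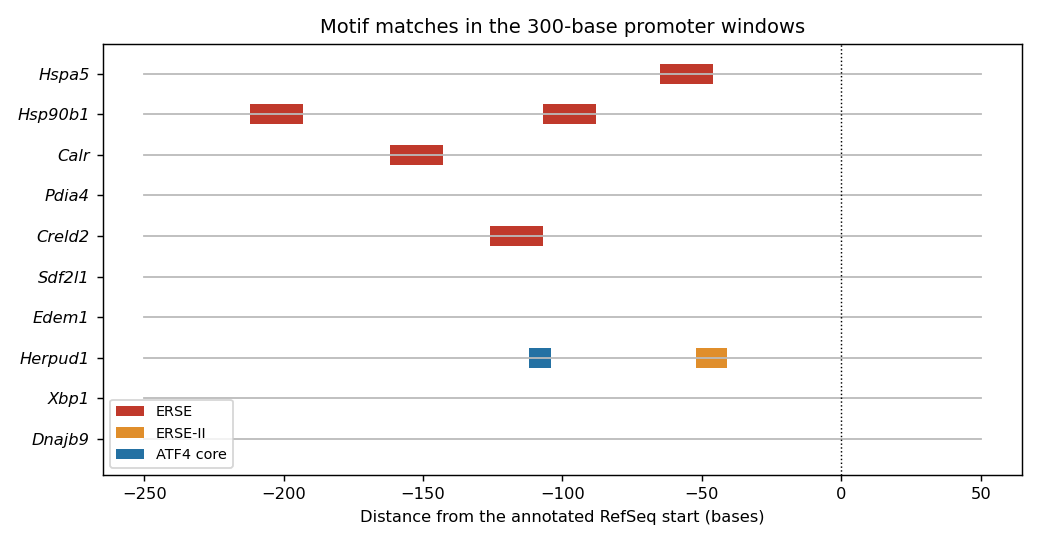
Matches to ERSE (red), ERSE-II (orange) and the ATF4 core (blue) in the promoter windows of the 10 genes (rows), against the distance in bases from the annotated RefSeq start (dotted line). An ERSE appears in Hspa5, Calr and Creld2 once and in Hsp90b1 at 2 positions, Herpud1 holds the ERSE-II and the ATF4 core, and the other 5 rows are empty.

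Hspa5 encodes BiP, the main HSP70-type chaperone of the ER, which also holds the sensors inactive. Its level was 139, 136 and 133 FPKM in Unt, 226, 262 and 278 in DOX, 230, 273 and 291 in D_DXZ and 96.6, 119 and 89.6 in D_MgHCF. The libraries of DOX and D_DXZ lay above all of Unt, and those of D_MgHCF below all of Unt. The log2 fold change of DOX against Unt was 0.90 ± 0.14 (SE, limma, adjusted p = 0.000377), which turned to -0.46 with TPM scaling, -0.05 with FPKM over summed reads and -0.75 with quantile normalization. In D_MgHCF against DOX it was -1.32 ± 0.14 (limma, adjusted p = 3.02e-05), which lost its call with TPM (-0.11) and with quantile normalization (0.13). Hspa5 was also lower in D_MgHCF than in Unt (-0.42 ± 0.14, limma, adjusted p = 0.0324), a call that was lost with the fit of the 2 groups alone, without the filter, and on leaving out any Unt library or D_MgHCF replicate 1 or 3 (values from -0.34 to -0.44).

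Hsp90b1 encodes GRP94, the HSP90-type chaperone of the ER. It was at 82.5, 76.6 and 65.6 FPKM in Unt, 344, 412 and 429 in DOX, 283, 391 and 391 in D_DXZ and 149, 120 and 51.3 in D_MgHCF. D_MgHCF replicate 3 lay below every Unt library while the other 2 lay above them all. The log2 fold change was 2.38 ± 0.33 for DOX against Unt (limma, adjusted p = 0.000192) and -2.00 ± 0.33 for D_MgHCF against DOX (limma, adjusted p = 0.000529), and both calls were lost with quantile normalization (0.78 and -0.56). D_MgHCF against Unt gave 0.38 (95% interval -0.35 to 1.11, limma, adjusted p = 0.388), but 0.83 without D_MgHCF replicate 3, which passed the test (limma, adjusted p = 0.00366). Hsp90b1 overlaps the antisense pseudogene 1810014B01Rik, which shares 273 identical bases with it and had a mean of 1.16 FPKM, and whether the counting used strand is not given in the sources used here.

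Calr encodes calreticulin, a lectin chaperone that also binds calcium, and it had the highest level of the 10 genes per length. It was at 184, 209 and 213 FPKM in Unt, 843, 1074 and 1159 in DOX, 732, 959 and 996 in D_DXZ and 441, 346 and 365 in D_MgHCF. All D_MgHCF libraries stood between those of Unt and those of DOX without overlap. On the log2 scale the change was 2.33 ± 0.19 for DOX against Unt (limma, adjusted p = 1.31e-05), 0.92 ± 0.19 for D_MgHCF against Unt (limma, adjusted p = 0.00396) and -1.41 ± 0.19 for D_MgHCF against DOX (limma, adjusted p = 0.00015). The difference from DOX lost its call with TPM scaling (-0.19) and turned to 0.26 with quantile normalization.

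Pdia4 encodes ERp72, a protein disulfide isomerase. Its level was 66.7, 69.2 and 69.9 FPKM in Unt, 207, 255 and 256 in DOX, 159, 224 and 219 in D_DXZ and 93.4, 61.3 and 47.3 in D_MgHCF. DOX and D_DXZ stood apart from Unt, whereas D_MgHCF spread on both sides of Unt. Its log2 fold change was 1.78 ± 0.22 for DOX against Unt (limma, adjusted p = 0.000108), not called with quantile normalization (0.30), and -0.08 for D_MgHCF against Unt (95% interval -0.58 to 0.42, limma, adjusted p = 0.802). D_MgHCF was lower than DOX by a log2 change of -1.86 ± 0.22 (limma, adjusted p = 7.3e-05), and this was called under all 4 scalings.

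**Figure D2:**
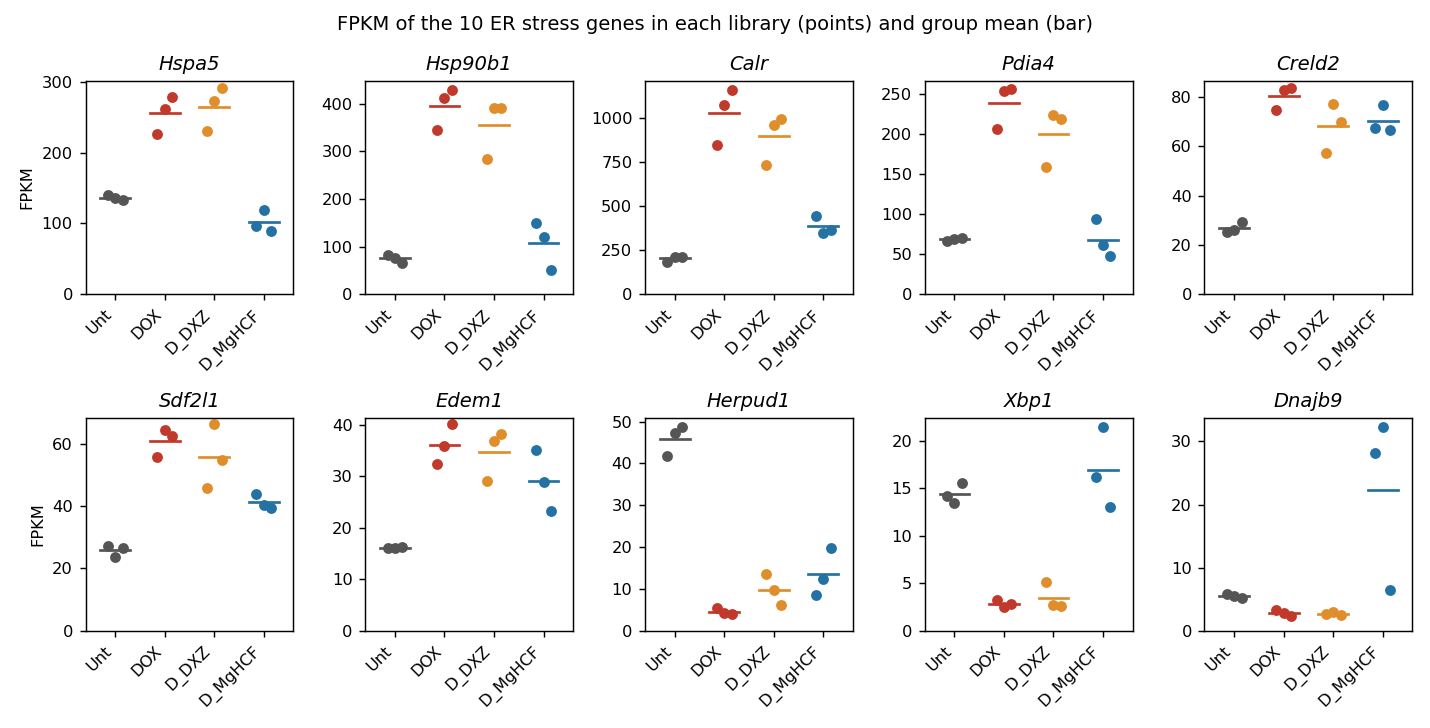
FPKM (linear axes from 0) of each of the 10 genes in the 12 libraries, as points by group, with the group mean as a bar. The first 7 panels are higher in every DOX library than in any Unt library on the deposited scale, Herpud1, Xbp1 and Dnajb9 are lower, and a wide spread within D_MgHCF is seen for Hsp90b1 and Dnajb9.

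Creld2, whose product is an ER protein with disulfide isomerase activity, was at 25.2, 26.0 and 29.5 FPKM in Unt, 74.7, 83.0 and 83.6 in DOX, 57.4, 77.1 and 69.8 in D_DXZ and 67.3, 76.8 and 66.6 in D_MgHCF. Every treated library was above every Unt library, and D_MgHCF overlapped both DOX and D_DXZ. The fitted log2 change was 1.55 ± 0.12 for DOX against Unt (limma, adjusted p = 1.17e-05), not called with TPM (0.21), and 1.35 ± 0.12 for D_MgHCF against Unt (limma, adjusted p = 3.73e-05). D_MgHCF against DOX was -0.19 (95% interval -0.46 to 0.07, limma, adjusted p = 0.193), and it was called higher with summed reads, TPM and quantile normalization (0.76 to 1.01). Creld2 was thus the ERSE-bearing member whose level in D_MgHCF stayed with the DOX libraries on the deposited scale.

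Sdf2l1, which encodes a partner of BiP in a chaperone complex, was at 27.3, 23.7 and 26.5 FPKM in Unt, 55.7, 64.3 and 62.3 in DOX, 45.7, 66.2 and 54.8 in D_DXZ and 43.9, 40.4 and 39.4 in D_MgHCF. D_MgHCF lay between Unt and DOX without overlap. The log2 fold change was 1.20 ± 0.13 for DOX against Unt (limma, adjusted p = 3.67e-05), which was -0.13 and not called with TPM. In D_MgHCF against DOX it was -0.55 ± 0.13 (limma, adjusted p = 0.00443), and this turned to a called rise of 0.40 with summed reads, 0.65 with TPM and 0.43 with quantile normalization.

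Edem1 encodes a protein of ER-associated degradation (ERAD) that marks glycoproteins with trimmed sugars for disposal. It was at 16.1, 16.1 and 16.2 FPKM in Unt, 32.4, 35.8 and 40.1 in DOX, 29.1, 36.8 and 38.1 in D_DXZ and 35.0, 28.9 and 23.2 in D_MgHCF. Every treated library was above Unt, and D_MgHCF overlapped DOX. On the log2 scale the change was 1.11 ± 0.15 for DOX against Unt (limma, adjusted p = 0.000164), and the call was lost with TPM (-0.20) and with summed reads (0.20). D_MgHCF against DOX gave -0.32 (95% interval -0.65 to 0.01, limma, adjusted p = 0.0976), which was called at -0.46 without D_MgHCF replicate 1 and called in the other direction with summed reads (0.62), TPM (0.86) and quantile normalization (0.43).

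Herpud1 encodes a membrane protein that assembles the ERAD machinery, and its promoter window held the ERSE-II printed above and the ATF4 core upstream of that stretch. It was at 41.7, 47.3 and 48.7 FPKM in Unt, 5.34, 4.18 and 4.00 in DOX, 13.5, 9.68 and 6.16 in D_DXZ and 8.53, 12.3 and 19.9 in D_MgHCF. All treated libraries lay below Unt, and all D_DXZ and D_MgHCF libraries lay above DOX. The mean fell 10.2-fold from Unt to DOX, with a log2 fold change of -3.10 ± 0.29 (limma, adjusted p = 2.23e-05). D_MgHCF was higher than DOX by 1.34 ± 0.29 (limma, adjusted p = 0.00339) and lower than Unt by a log2 change of -1.76 ± 0.29 (limma, adjusted p = 0.00119). These calls were kept under all 4 scalings, as was the direction. Herpud1 overlaps the antisense gene Gm15890, which had a mean of 0.267 FPKM.

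Xbp1 was at 14.1, 13.5 and 15.5 FPKM in Unt, 3.22, 2.54 and 2.82 in DOX, 5.13, 2.68 and 2.65 in D_DXZ and 16.2, 21.5 and 13.0 in D_MgHCF. The libraries of Unt and D_MgHCF overlapped, and both stood above all of DOX and D_DXZ. The mean fell 5.02-fold from Unt to DOX, with a log2 fold change of -1.99 ± 0.22 (limma, adjusted p = 4.55e-05). It was higher in D_MgHCF than in DOX by 2.19 ± 0.22 (limma, adjusted p = 2.36e-05), and D_MgHCF against Unt gave 0.19 (95% interval -0.29 to 0.68, limma, adjusted p = 0.514). The fall with DOX and the higher level in D_MgHCF were called under all 4 scalings. The transcription factor gene therefore moved opposite to the chaperone genes on the deposited scale. There the median change with DOX was 0.05 for genes of at least 1 FPKM but 0.93 for those of at least 10 FPKM. A background of genes at the level of Xbp1 was not computed, so the part of level in this contrast was not tested.

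Dnajb9 encodes ERdj4, a co-chaperone of BiP that keeps IRE1 inactive. Its level was 5.83, 5.50 and 5.14 FPKM in Unt, 3.33, 2.81 and 2.41 in DOX, 2.70, 2.96 and 2.53 in D_DXZ and 28.1, 32.3 and 6.39 in D_MgHCF. D_MgHCF replicate 3 stood close to Unt, with the other 2 libraries of that group far above it. The log2 fold change of D_MgHCF was 2.33 ± 0.45 against DOX (limma, adjusted p = 0.00148) and 1.57 ± 0.45 against Unt (limma, adjusted p = 0.019). The call against Unt was lost without D_MgHCF replicate 1 or 2 (1.27 and 1.18), without Unt replicate 2 or 3 (1.57 and 1.53), without the filter and with the fit of the 2 groups. DOX against Unt gave -0.76 (95% interval -1.75 to 0.24, limma, adjusted p = 0.241), although the libraries did not overlap. It was called with TPM (-1.85), with summed reads (-1.49), with the fit of the 2 groups and without D_MgHCF replicate 3 (both -0.76).

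In DOX against Unt, which asks what doxorubicin changed, 7 of the 10 genes were called higher (Hspa5, Hsp90b1, Calr, Pdia4, Creld2, Sdf2l1 and Edem1), 2 lower (Xbp1 and Herpud1) and 1 not (Dnajb9). Of all 25044 genes tested, 38.4% were called, 18.6% higher and 19.9% lower. Level mattered for this background. Among the 1199 genes with a mean of at least 50 FPKM, 92.7% were called higher and 1.33% lower, with a median log2 fold change of 1.64, and among the 4566 genes with a mean of at least 10 FPKM, 65.2% were called higher and 15% lower, with a median of 0.93. The rise of the abundant members was therefore close to that of genes chosen by a high mean level, and the count of 7 is not a result about these genes. That mean was taken over all 12 libraries, including DOX and D_DXZ. Genes that rose with doxorubicin thus entered these backgrounds more readily than genes that fell, so the shares are in part set by that choice. Hsp90b1 and Calr lay 0.74 and 0.69 above the median of the genes of at least 50 FPKM, Pdia4 0.14 above it, while the differences of Creld2 and Hspa5 from it were -0.09 and -0.74. The fall of Herpud1 went the other way from most genes of at least 10 FPKM, a level that the mean of Xbp1 did not reach.

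**Figure D3:**
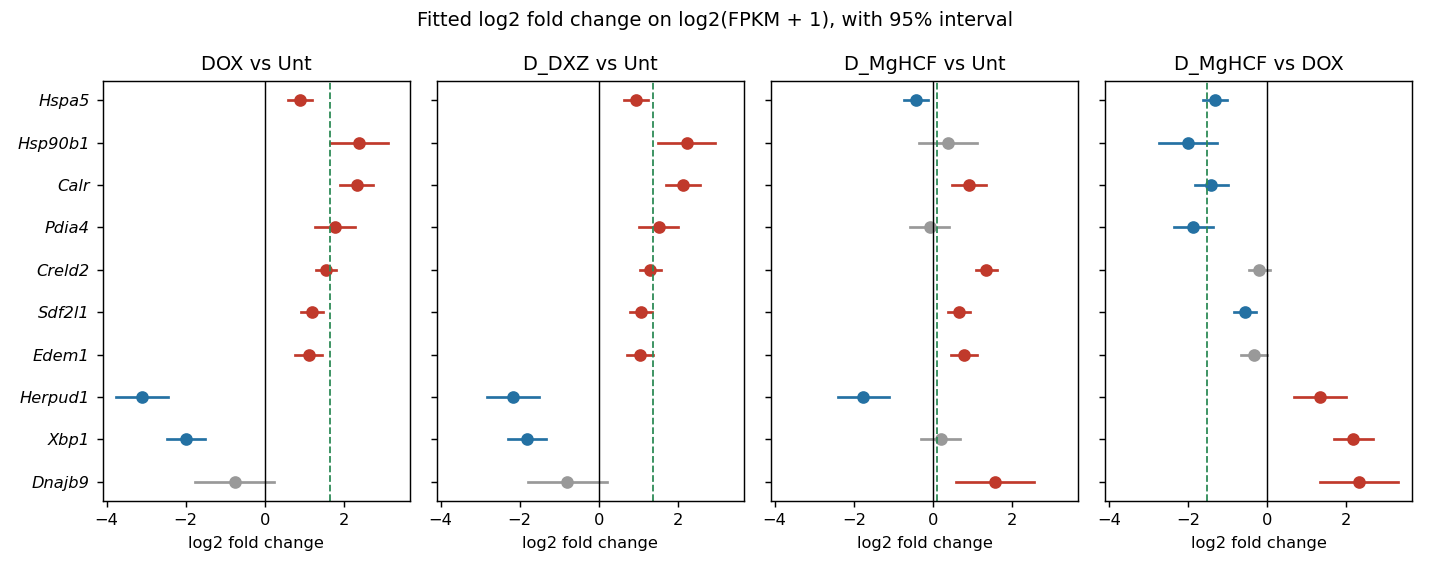
Log2 fold change on the log2(FPKM + 1) scale (points) with 95% intervals (lines) of the 10 genes in 4 comparisons; red and blue are called higher and lower at an adjusted p under 0.05 and grey is not called. The dashed green line is the median of the genes of at least 50 FPKM (1.64 in DOX vs Unt), which Hspa5 does not reach and which Hsp90b1 and Calr pass; under other scalings Hspa5, Sdf2l1, Edem1, Calr and Creld2 change sign in at least 1 of these comparisons.

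The library scaling decided part of these directions, as the plot of 4 scalings shows. With TPM, where each library has the same total per length, the median log2 fold change of DOX against Unt over the 11515 genes of at least 1 FPKM was -1.03 instead of 0.05, and with FPKM over summed reads it was -0.69. The members were then split 3 higher and 4 lower with TPM, 5 higher and 3 lower with summed reads and 4 higher and 3 lower with quantile normalization, against 7 and 2 on the deposited scale. Of all 25044 genes tested, 1099 were called higher and 10034 lower with TPM. The totals were 2075 and 8303 with summed reads and 4170 and 4340 with quantile normalization. Hsp90b1, Calr, Pdia4 and Creld2 had a positive log2 fold change under all 4, and Xbp1, Herpud1 and Dnajb9 a negative one. Hspa5 lay 0.57 above that median with TPM, 0.64 above it with summed reads and 0.85 above it on the deposited scale, and its difference from it was -0.77 with quantile normalization. Against the genes of at least 50 FPKM, its difference was negative under all 4 scalings, from -0.74 to -0.98.

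**Figure D4:**
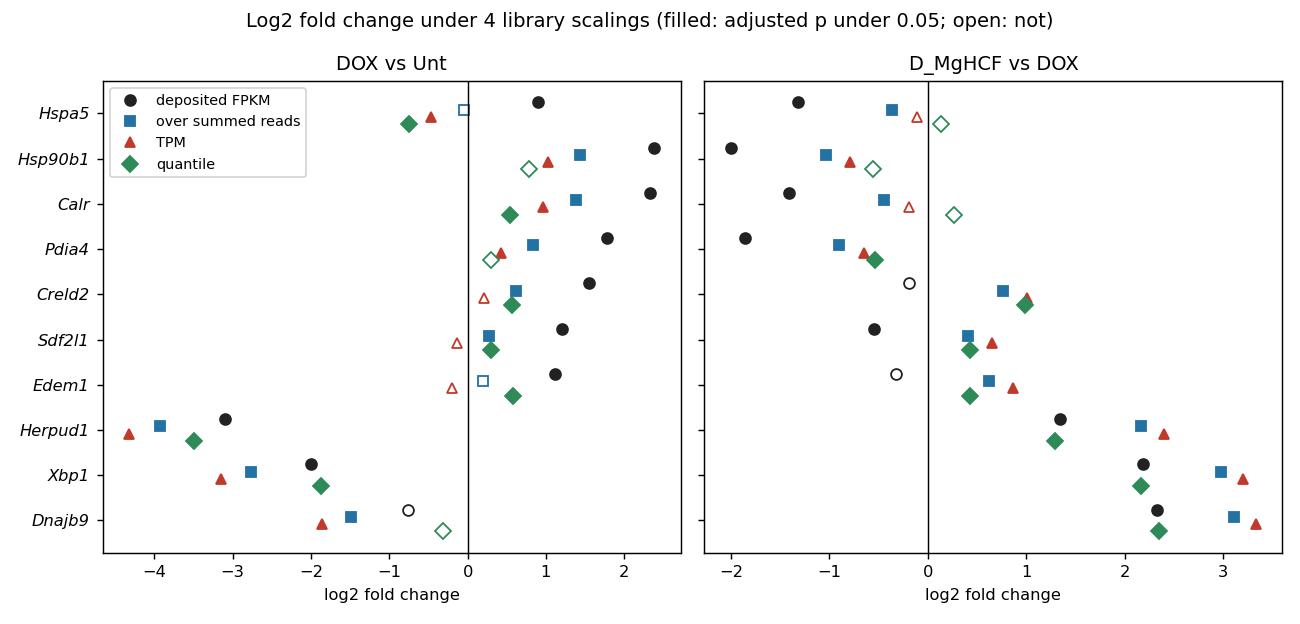
Log2 fold change of the 10 genes in DOX vs Unt (left) and D_MgHCF vs DOX (right) on the deposited FPKM (circles), over summed reads (squares), as TPM (triangles) and after quantile normalization (diamonds); filled symbols passed an adjusted p under 0.05. Herpud1 and Xbp1 stay on the same side of 0 throughout, Hspa5, Sdf2l1 and Edem1 cross 0 in both panels, and Calr and Creld2 cross it in the right panel.

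Ratios between 2 members within a library do not depend on a scaling by 1 factor per library, and were computed after the values had been seen. Quantile normalization is no such factor and can change them. The ratio of Hspa5 to Xbp1 was 9.49 ± 0.81 in Unt (mean ± SD, n = 3), 90.5 ± 17.9 in DOX, 85.6 ± 35.4 in D_DXZ and 6.13 ± 0.69 in D_MgHCF. The lowest value in the doxorubicin and dexrazoxane groups was 44.9 and the highest in the other groups was 10.1. The ratio of Hspa5 to Herpud1 was 2.98 ± 0.32 in Unt, 58.2 ± 14.2 in DOX, 30.8 ± 15.3 in D_DXZ and 8.50 ± 3.55 in D_MgHCF, with no overlap between Unt and any treated group. Within the chaperones, Hsp90b1 over Hspa5 was 0.550 ± 0.051 in Unt, 1.55 ± 0.03 in DOX, 1.33 ± 0.10 in D_DXZ and 1.04 ± 0.49 in D_MgHCF. Calr over Hspa5 was 1.49 ± 0.15 in Unt and 4.00 ± 0.23, 3.37 ± 0.17 and 3.85 ± 0.85 in the treated groups. In every DOX and D_DXZ library both chaperone ratios were above those of all Unt libraries, whatever factor is applied to a library. The 10 genes together took 0.258% to 0.268% of the reads on genes for Unt, 0.303% to 0.381% for D_MgHCF, 0.444% to 0.474% for DOX and 0.444% to 0.495% for D_DXZ.

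Dexrazoxane was compared with DOX to see whether it altered these levels. None of the 10 genes was called in D_DXZ against DOX with limma at an adjusted p under 0.05, where 0% of all genes were called in any direction. At an unadjusted p under 0.05, which 9.54% of all genes passed, 1 member passed, Herpud1, with a log2 fold change of 0.92 ± 0.29 (limma, unadjusted p = 0.0105, adjusted p = 0.387), and all 3 of its D_DXZ libraries were above DOX. With voom on the recovered reads, 0 members and 0 of all genes were called in this comparison, and 0 genes of the 5 pathway lists were called with limma at an adjusted p under 0.05. The other 9 genes overlapped between the groups. How many of all genes separated these groups was not counted, so the separation of Herpud1 is a description only. The log2 fold changes of the other 9 genes ran from -0.26 for Pdia4 (95% interval -0.76 to 0.24) to 0.18 for Xbp1 (95% interval -0.31 to 0.66), which leaves room for differences of that size. D_DXZ against Unt, which shares the Unt libraries with the comparison above, called 7 members higher and 2 lower, where 33.9% of all genes were called, 15.9% higher and 18% lower. Hspa5 was at 0.95 ± 0.14 there, but at -0.23 with TPM and -0.47 with quantile normalization, and Xbp1 was at -1.82 ± 0.22.

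In D_MgHCF against DOX, which asks what the nanocatalyst changed in doxorubicin-treated cells, 3 members were called higher (Dnajb9, Xbp1 and Herpud1), 5 lower (Hsp90b1, Pdia4, Calr, Hspa5 and Sdf2l1) and 2 not (Creld2 and Edem1). Of all genes tested, 51.5% were called, 31.4% higher and 20.1% lower. Among the genes of at least 50 FPKM, 92.7% were called lower and 1.83% higher, with a median log2 fold change of -1.53, so the falls of the abundant chaperones were again near those of other abundant genes. These genes were chosen by the same mean over all libraries, which in part sets their shares here as well. With TPM, 6 members were called higher and 2 lower, where 13331 of all 25044 genes were called higher and 1679 lower. The rises of Dnajb9, Xbp1 and Herpud1, and the fall of Pdia4, were called under all 4 scalings.

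In D_MgHCF against Unt, 5 members were called higher (Dnajb9, Creld2, Calr, Edem1 and Sdf2l1), 2 lower (Herpud1 and Hspa5) and 3 not (Hsp90b1, Xbp1 and Pdia4), where 40.1% of all genes were called, 24.3% higher and 15.7% lower. The split was 5 higher and 2 lower under each of the 4 scalings. Over all 25044 genes, 6708 were higher and 4972 lower with TPM, and 7331 and 4138 with summed reads. With quantile normalization they were 4252 and 4627. When a change of at least 2-fold was also required, 3 members passed, as did 1553 of all genes higher and 1263 lower. Without D_MgHCF replicate 3, 6 members were called higher and 1 lower, where 8016 and 4687 of 24208 genes were. In D_MgHCF against D_DXZ, where 48.4% of all genes were called, Dnajb9 and Xbp1 were called higher at 2.37 ± 0.45 and 2.01 ± 0.22, and Hsp90b1, Pdia4, Hspa5, Calr and Sdf2l1 lower, where 29.4% and 19% of all genes were called in these directions. Creld2 (0.05, 95% interval -0.21 to 0.31), Edem1 and Herpud1 were not called in that comparison on the deposited scale. With TPM and with summed reads all 3 were called higher, Creld2 at 1.08 and 0.82, Herpud1 at 1.37 and 1.13 and Edem1 at 0.75 and 0.50, and Creld2 was also called with quantile normalization (1.00). The sign of Sdf2l1 turned under the other 3 scalings, the call of Calr was lost with TPM (-0.17) and quantile normalization (0.20), and those of Hspa5 and Hsp90b1 were lost with quantile normalization (-0.15 and -0.65).

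The sensors and other transducers were examined in a list of 9 genes, none of them a member. In DOX against Unt, 2 were called higher and 4 lower, where 18.6% and 19.9% of all genes were. In D_MgHCF against DOX, 5 were called higher and 4 lower, where 31.4% and 20.1% of all genes were. The medians were -0.10 and 0.74 against 0 and 0.07 over all genes tested. The first counts were 0 and 6 with TPM, 1 and 6 with summed reads and 0 and 2 with quantile normalization. The second were 6 and 2, 6 and 2, and 6 and 3 in the same order. Ern1, the gene of IRE1, was at 14.0, 12.9 and 13.9 FPKM in Unt, 4.76, 4.05 and 3.54 in DOX, 5.65, 5.34 and 4.86 in D_DXZ and 9.19, 10.9 and 13.4 in D_MgHCF. Its log2 fold change was -1.52 ± 0.13 for DOX against Unt (limma, adjusted p = 1.66e-05) and 1.24 ± 0.13 for D_MgHCF against DOX (limma, adjusted p = 3.79e-05), and both calls were made under all 4 scalings. As for Xbp1, its target, all Unt and D_MgHCF libraries were above all DOX and D_DXZ libraries. Eif2ak3, the gene of PERK, was at 3.13 to 3.50 FPKM in Unt, 1.46 to 2.32 in DOX and 5.02 to 8.34 in D_MgHCF. It was called lower in DOX than in Unt at -0.60 ± 0.19 (limma, adjusted p = 0.0269), which was lost with quantile normalization (-0.14), and higher in D_MgHCF than in DOX at 1.41 ± 0.19 (limma, adjusted p = 0.000142). Atf6 was not called in DOX against Unt (-0.10 ± 0.20, limma, adjusted p = 0.818), was called there at -0.95 and -1.33 with summed reads and TPM, and was lower in D_MgHCF than in DOX at -0.75 ± 0.20 (limma, adjusted p = 0.00945), where these scalings gave 0.09 and 0.30.

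The largest rise among the transducers with DOX was that of Mbtps1, the site 1 protease gene that cuts ATF6, at 1.28 ± 0.24 (limma, adjusted p = 0.00146), which was -0.05 with TPM and was called in none of the other 3 scalings. In D_MgHCF against DOX it had the largest fall, at -1.65 ± 0.24, called under all 4. Creb3l2, which encodes a further ER-anchored transcription factor, had the largest rise there, at 2.05 ± 0.30 (limma, adjusted p = 0.000231). Its levels were 4.95, 4.95 and 5.23 FPKM in Unt, 2.32, 1.79 and 1.69 in DOX, 2.51, 1.82 and 1.72 in D_DXZ and 17.6, 12.8 and 5.85 in D_MgHCF, and D_MgHCF replicate 3 was again nearest to Unt.

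Of 16 other ER chaperones, co-chaperones and oxidoreductases, 13 were called higher and 0 lower in DOX against Unt, and 1 higher and 15 lower in D_MgHCF against DOX (limma, adjusted p under 0.05). With TPM these counts were 9 higher and 6 lower, and 3 higher and 5 lower. The median log2 fold change of 1.69 in DOX against Unt was close to the 1.64 of the genes of at least 50 FPKM, of which 92.7% were called higher. Among genes of at least 10 FPKM the median was 0.93 and 65.2% were called higher. Some genes of this list, such as Creld1, stayed under 50 FPKM in every library, so neither background matches the whole list. Pdia3, the glycoprotein-specific disulfide isomerase that works with calreticulin, rose most, at 2.47 ± 0.19 (limma, adjusted p = 1.23e-05), from 111, 112 and 116 FPKM in Unt to 523, 683 and 697 in DOX. It also fell most in D_MgHCF against DOX, at -1.80 ± 0.19, and both were called under all 4 scalings. Ero1lb, an oxidase that recharges disulfide isomerases, was the 1 gene higher in D_MgHCF than in DOX, at 0.53 ± 0.16 (limma, adjusted p = 0.02), and was not called with quantile normalization (0.17).

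The 14 other ERAD genes were split in DOX against Unt, with 8 called higher and 2 lower, against 1 higher and 9 lower with TPM. With TPM, 1099 of all 25044 genes were called higher and 10034 lower in this comparison. Vcp, the ATPase that pulls ERAD substrates out of the membrane, rose most at 1.82 ± 0.15, and Edem3, a relative of Edem1, fell most at -0.90 ± 0.13, both called in the same direction under all 4 scalings. In D_MgHCF against DOX 4 were called higher and 8 lower, where 31.4% and 20.1% of all genes were. They ran from Derl3, a Derlin gene, at 1.00 ± 0.14 to Vcp at -2.26 ± 0.15. The counts became 7 higher and 3 lower with TPM, 6 and 3 with summed reads and 3 and 6 with quantile normalization. Of all genes, 13331 were called higher and 1679 lower with TPM. Derl3 had a low level, at 0.196 to 0.331 FPKM in DOX and 0.961 to 1.86 in D_MgHCF. Of 16 genes of the translocon, the signal peptidase and the KDEL receptors, 15 were called higher and 0 lower in DOX against Unt (8 and 2 with TPM), and 0 higher and 16 lower in D_MgHCF against DOX (2 and 9 with TPM). The shares of all genes were 18.6% higher in the first comparison and 20.1% lower in the second. Among genes of at least 50 FPKM they were 92.7% in both, and among genes of at least 10 FPKM 65.2% and 67.3%. Some genes of this list, such as Sec63, stayed under 50 FPKM in every library, so neither background matches the whole list. Sec61b, a translocon subunit gene, rose most with DOX at 2.07 ± 0.28. Spcs3, a signal peptidase subunit gene, fell most in D_MgHCF against DOX at -2.93 ± 0.16, from 99.6, 130 and 133 FPKM to 17.5, 15.3 and 12.3 FPKM.

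Most genes of the PERK and ATF4 arm differed from the chaperones in direction. Of its 6 readouts, 0 were called higher and 5 lower in DOX against Unt, with a median log2 fold change of -2.98. Of all genes, 19.9% were called lower there. In D_MgHCF against DOX, 5 were higher and 1 lower with a median of 1.93, where 31.4% of all genes were called higher. The 3 other scalings called 0 higher and 6 lower in the first comparison and again 5 higher and 1 lower in the second. TPM and summed reads also called 10034 and 8303 of all 25044 genes lower in the first. In the second they called 13331 and 12376 higher. With quantile normalization, 4340 were called lower in the first and 4626 higher in the second. The sixth, Asns, was the exception in the first comparison. It was at 0.40 ± 0.17 on the deposited scale (limma, adjusted p = 0.0828) and was called at -0.54, -0.96 and -1.23 with summed reads, TPM and quantile normalization. Trib3, a pseudokinase gene induced by ATF4 and CHOP, was at 143, 149 and 168 FPKM in Unt, 3.97, 1.43 and 1.14 in DOX, 35.8, 17.2 and 6.62 in D_DXZ and 9.41, 9.04 and 17.5 in D_MgHCF. The DOX libraries were the lowest, and the log2 fold change from Unt was -5.70 ± 0.51 (limma, adjusted p = 1.77e-05). Chac1, a glutathione-degrading enzyme gene of the same arm, had the largest rise in D_MgHCF against DOX, at 2.30 ± 0.67 (limma, adjusted p = 0.0158), with 12.6, 21.4 and 64.0 FPKM in D_MgHCF against 11.6, 3.38 and 2.01 in DOX. Asns, the asparagine synthetase gene, had the fall in that comparison, at -1.94 ± 0.17. Atf4 itself, named after its values were seen because its core element stood in the Herpud1 window, was at 271, 294 and 295 FPKM in Unt, 27.7, 19.7 and 18.4 in DOX, 85.1, 49.6 and 33.9 in D_DXZ and 31.4, 78.3 and 109 in D_MgHCF. As for Herpud1, every DOX library was below every library of the other groups.

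**Figure D5:**
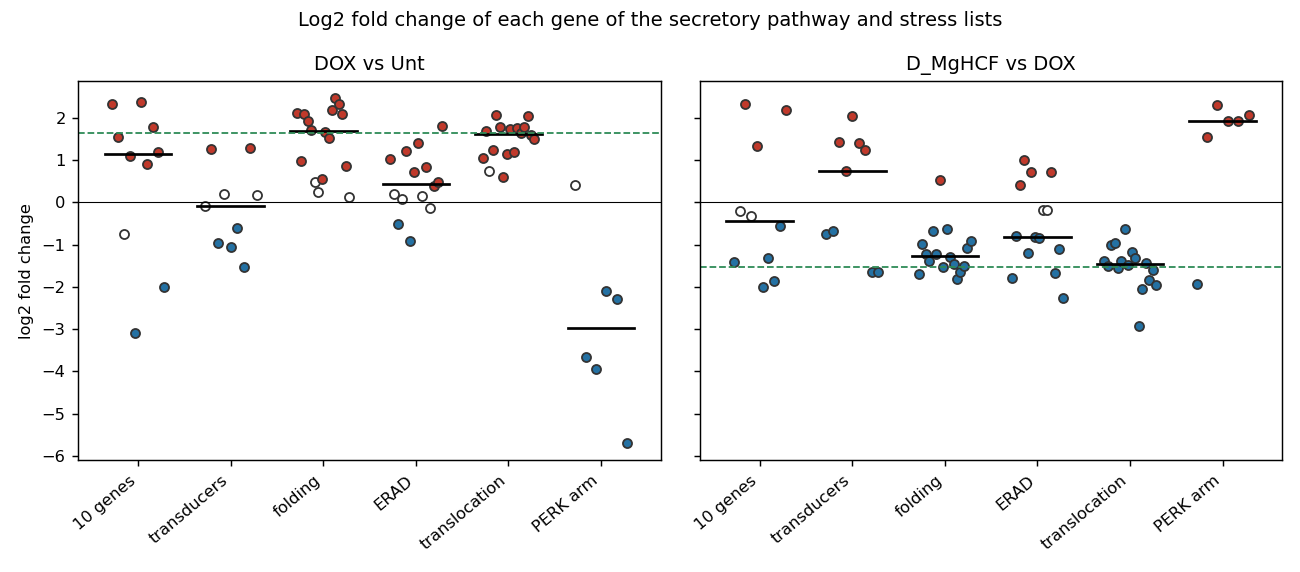
Log2 fold change of each gene (points) of the 10 members and of the 5 lists in DOX vs Unt (left) and D_MgHCF vs DOX (right); filled points were called (red higher, blue lower), black bars are list medians and the dashed green line is the median of genes of at least 50 FPKM. On the deposited scale the medians of the folding and translocation lists (1.69 and 1.63 on the left, -1.26 and -1.45 on the right) lie near the dashed line, and 5 of the 6 PERK arm genes, Asns being the exception, lie on the other side of 0; with TPM, 9 of the 14 ERAD genes are lower in the left panel instead of 2.

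Over the 12 libraries, members fell into different patterns. On log2(FPKM + 1), Hspa5 correlated with Pdia4 at r = 0.93 and with Hsp90b1 at r = 0.90, but with Creld2 at r = 0.40 and with Xbp1 at r = -0.94, while Edem1 and Herpud1 stood at r = -0.96. The points share 4 groups and the library scaling, so these are descriptions of how the group means line up. Among 6873 genes with a mean of at least 5 FPKM, those most like Hspa5 were 0610010F05Rik, Hnrnpm and Gm12112 (r = 0.992, 0.992 and 0.991). Those most like Xbp1 were Slu7, Brd2 and B230354K17Rik (r = 0.992, 0.992 and 0.991), of which Brd2, a chromatin reader gene, had means of 39.8 FPKM in Unt, 13.5 in DOX, 15.1 in D_DXZ and 39.4 in D_MgHCF.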

How the data were processed

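Poly(A) RNA of 12 libraries was sequenced as paired-end reads, with NEBNext libraries per the labels. The authors deposited FPKM values of 54345 genes that carry mouse Ensembl identifiers and GRCm38 positions; the submitters' processing notes name HISAT2 2.0.5 and GRCm38/mm10, and how the reads of cells described as rat were counted on mouse genes is not given in the sources used here. FPKM multiplied by gene length gave whole reads (tolerance 0.02), and the deposited values already contained a median-ratio scaling. Groups followed the labels.

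For the 25044 genes detected (FPKM over 0) in 3 or more libraries, log2(FPKM + 1) was fitted with limma 3.58.1 in R 4.3.3 (1 fit over 4 groups, trend, no covariate) for 6 comparisons, and genes were called at a Benjamini-Hochberg adjusted p under 0.05 over all genes. The pseudocount makes changes of low genes smaller. Near copies were searched with BLAST 2.17.0. The fit was run on simulated data with the same spread in every group and few genes changed. That run did not test the unequal spread or the scaling of these libraries.

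The members, the pathway lists and the rule for named genes (all members, the 3 sensor genes, the largest called rise and fall of each list with doxorubicin and with each agent added to it, and the 3 genes most like Hspa5 and Xbp1) were chosen with earlier results of these data known. Alternatives were pseudocount 0.1, no filter, a filter at 1 FPKM, unadjusted p, a 2-fold minimum, TPM, quantile normalization, FPKM over summed reads, voom on recovered reads, a replicate block, fits of 2 groups and each library left out. List counts under these alternatives, backgrounds by level and ratios within libraries were added after seeing the data. Protein sequences were not used here.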

Additional observations from a re-analysis of the deposited data

How the results depend on the processing

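Counts of members called stayed within 1.5 times under every alternative and every library left out, except for D_MgHCF against Unt with a 2-fold minimum (3 members) and D_DXZ against DOX at an unadjusted p under 0.05 (1 member). Over libraries left out, the counts ranged from 9 to 10 in DOX against Unt and from 5 to 7 in D_MgHCF against Unt. Of the log2 fold changes of single members, 26 reversed, each under a change of library scaling. With TPM, DOX against Unt gave -0.46 for Hspa5, -0.20 for Edem1 and -0.13 for Sdf2l1, D_DXZ against Unt gave -0.23, -0.094 and -0.097, D_MgHCF against DOX gave 0.86 for Edem1, 0.65 for Sdf2l1 and 1.01 for Creld2, and D_MgHCF against D_DXZ gave 0.75 for Edem1 and 0.62 for Sdf2l1. With FPKM over summed reads, DOX against Unt gave -0.047 for Hspa5, D_MgHCF against DOX gave 0.62 for Edem1, 0.40 for Sdf2l1 and 0.76 for Creld2, and D_MgHCF against D_DXZ gave 0.50 for Edem1 and 0.36 for Sdf2l1. With quantile normalization, Hspa5 was at -0.75 in DOX against Unt, -0.47 in D_DXZ against Unt and 0.13 in D_MgHCF against DOX, Edem1 at 0.43 and Creld2 at 0.98 in D_MgHCF against DOX, Calr at 0.26 and 0.20 and Sdf2l1 at 0.43 and 0.36 in D_MgHCF against DOX and against D_DXZ. Which scaling is nearer to RNA per cell was not tested. A further 20 calls were lost and 12 gained under alternatives other than leaving out a library, and 12 were lost and 5 gained when a library was left out. Same-numbered libraries did not deviate together throughout (18 pairs, r from -0.41 to 0.42, with 3 over 0.1). Between DOX and D_DXZ the same-numbered pairs were at 0.42, 0.053 and 0.35. Differently numbered pairs of these groups ran from -0.45 to 0.23. Deviations from means of 3 libraries cannot settle whether the numbers pair samples. With the replicate block 9 members were called in DOX against Unt, 7 in D_MgHCF against Unt and 8 in D_MgHCF against DOX. Each member had at least 71 reads in every library, and whether depth or the number of libraries limited these results was not tested.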
